A study of Mus musculus with 16 samples.

Results

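The SLC25 family of mitochondrial carriers, with the uncoupling proteins that belong to it, was followed in mouse liver by Affymetrix array. Members were all probe sets (groups of array probes for one transcript region) whose annotated symbol starts with Slc25a and a number. Those of Ucp1, Ucp2 and Ucp3 were added, and probe sets annotated to several symbols were not taken. The rule found 68 probe sets of 35 genes among 22626 probe sets in all. Of these genes, 19 had 1 probe set and 16 had several. Other family members of the substrate lists matched no probe set with a single symbol and were not analysed here. Among them were Slc25a1, Slc25a12, Slc25a16, Slc25a18, Slc25a21, Slc25a27, Slc25a31, Slc25a32, Slc25a34, Slc25a40, Slc25a41, Slc25a43, Slc25a52, Slc25a54 and Ucp2.

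Most SLC25 proteins sit in the inner mitochondrial membrane and exchange the compounds that metabolism needs on both sides of it: adenine nucleotides, phosphate, dicarboxylates, amino acids, acylcarnitines, nucleotides and cofactors. In hepatocytes they join cytosolic and mitochondrial steps of the urea cycle, of gluconeogenesis, of fatty acid oxidation and of lipid synthesis. Of the uncoupling proteins, Ucp1 lets protons back into the matrix without ATP synthesis. The members are described here by the substrate each is known to carry.

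The samples were livers of male FvB/n mice in 2 experiments of 8 arrays, 16 arrays and 6 groups in all. In the first experiment every mouse carried TTR::Fv2E-PERK in its high-expression line, a transgene for a PERK kinase that can be dimerised by a drug, under the transthyretin promoter that drives expression in liver. The second experiment crossed diet, low fat (LFD) or high fat (HFD), with genotype, wildtype or Alb::GC, at 2 arrays in each of its 4 groups, where Alb is the albumin promoter of hepatocytes and GC, in the published work on these mice, is a C-terminal fragment of GADD34 that promotes dephosphorylation of the translation factor eIF2alpha. The PERK experiment compared 4 arrays of untreated with 4 arrays of AP20187-treated liver, and the design text calls the control injection mock. AP20187 is the dimerising drug, and activated PERK phosphorylates eIF2alpha, which starts the integrated stress response. The labels name no age, dose, treatment time or diet duration and do not say whether each array was a separate animal. The p-values therefore set group differences against the spread between these arrays, which may not be that between animals. For LFD wildtype replicate 2 the source name lists both genotypes, and for AP20187 replicate 4 it is a single letter. Both were grouped by their descriptions.

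Each value is a ratio around 1, with array medians of 0.94 to 1.02, and levels of different probe sets or of the 2 experiments cannot be compared. Correlations of log2 values between arrays of a group ran from 0.442 to 0.658. All 8 integrated stress response targets of a fixed list, among them Chac1, Atf3 and Fgf21, rose with AP20187, as did Ppp1r15a (GADD34, 1.55 ± 0.20 on the log2 scale, adjusted p = 0.000808), while Eif2ak3 (PERK) did not pass (0.39 ± 0.15, adjusted p = 0.0747 in limma). On HFD, averaged over genotypes, 1 of the 8 targets rose and 2 fell, beside 13.6% and 14.8% of all genes. Ppp1r15a was lower on HFD (-0.84 ± 0.16, adjusted p = 0.0156 in limma). The defining hepatocyte markers Alb, Ttr, Apoa1, Tat and Cps1 were read on every array, with ratios from 0.7 to 1.55, and 4 of the 5 fell with AP20187. Also lower with AP20187 were 5 of 8 macrophage, 3 of 6 stellate and fibroblast and 3 of 6 endothelial markers, beside 21.4% of all genes. Of the lymphocyte markers 1 of 6 fell, and none of 4 cholangiocyte or 5 neutrophil markers did. In whole liver fewer cells of a type and less RNA per cell cannot be told apart. The Gapdh and Actb control probe sets, which read the 3' and 5' ends of a transcript, differed between diets: the log2 difference of 3' over 5' was 0.04 to 0.22 for Gapdh and -0.16 to 0.21 for Actb on the LFD arrays, against -0.31 to -0.15 and -0.71 to -0.33 on the HFD arrays, with no overlap. With AP20187 the Actb difference was -0.04 to 0.15, against -0.18 to -0.02 untreated, and that of Gapdh was -0.14 to 0.19 against -0.06 to -0.01, with overlap in both. Results of fits with the control difference as a covariate are given beside the calls, and 41.7% of its variance in the PERK experiment lay between treatments.

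With AP20187, 29 of the 68 member probe sets (42.6%) passed an adjusted p of 0.05, 16 higher and 13 lower, against 34.1% of all probe sets tested (13.7% higher and 20.4% lower). By gene, counted where at least 1 of its probe sets passed, 9 carriers rose, 9 fell and 17 did not pass. That rule favours genes with several probe sets, and its share over all genes was not computed. Read by the probe set of highest mean alone, 16 of 35 member genes passed, against 34.7% of 12393 genes. The rises were led by carriers of basic amino acids, pyrimidine nucleotides and NAD+ and by the uncoupling-like carrier Slc25a30, and the falls by the calcium-regulated adenine nucleotide carrier Slc25a23 and the uncoupling-like Slc25a14. The median log2 difference of the members was 0.01, against -0.13 for all probe sets. All adjusted p values are from limma with Benjamini-Hochberg adjustment over the 22626 probe sets, log2 differences are of the ratio plus 0.05 with their standard error (SE), and n is 4 against 4 arrays. In 30 members (44.1%) the arrays of the groups did not overlap, which held for 35% of all probe sets. With the 3' to 5' control difference as a covariate 24 of the 68 passed: 6 of the 29 calls were lost and Slc25a5 1434801_x_at was gained.

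**Figure D1:**
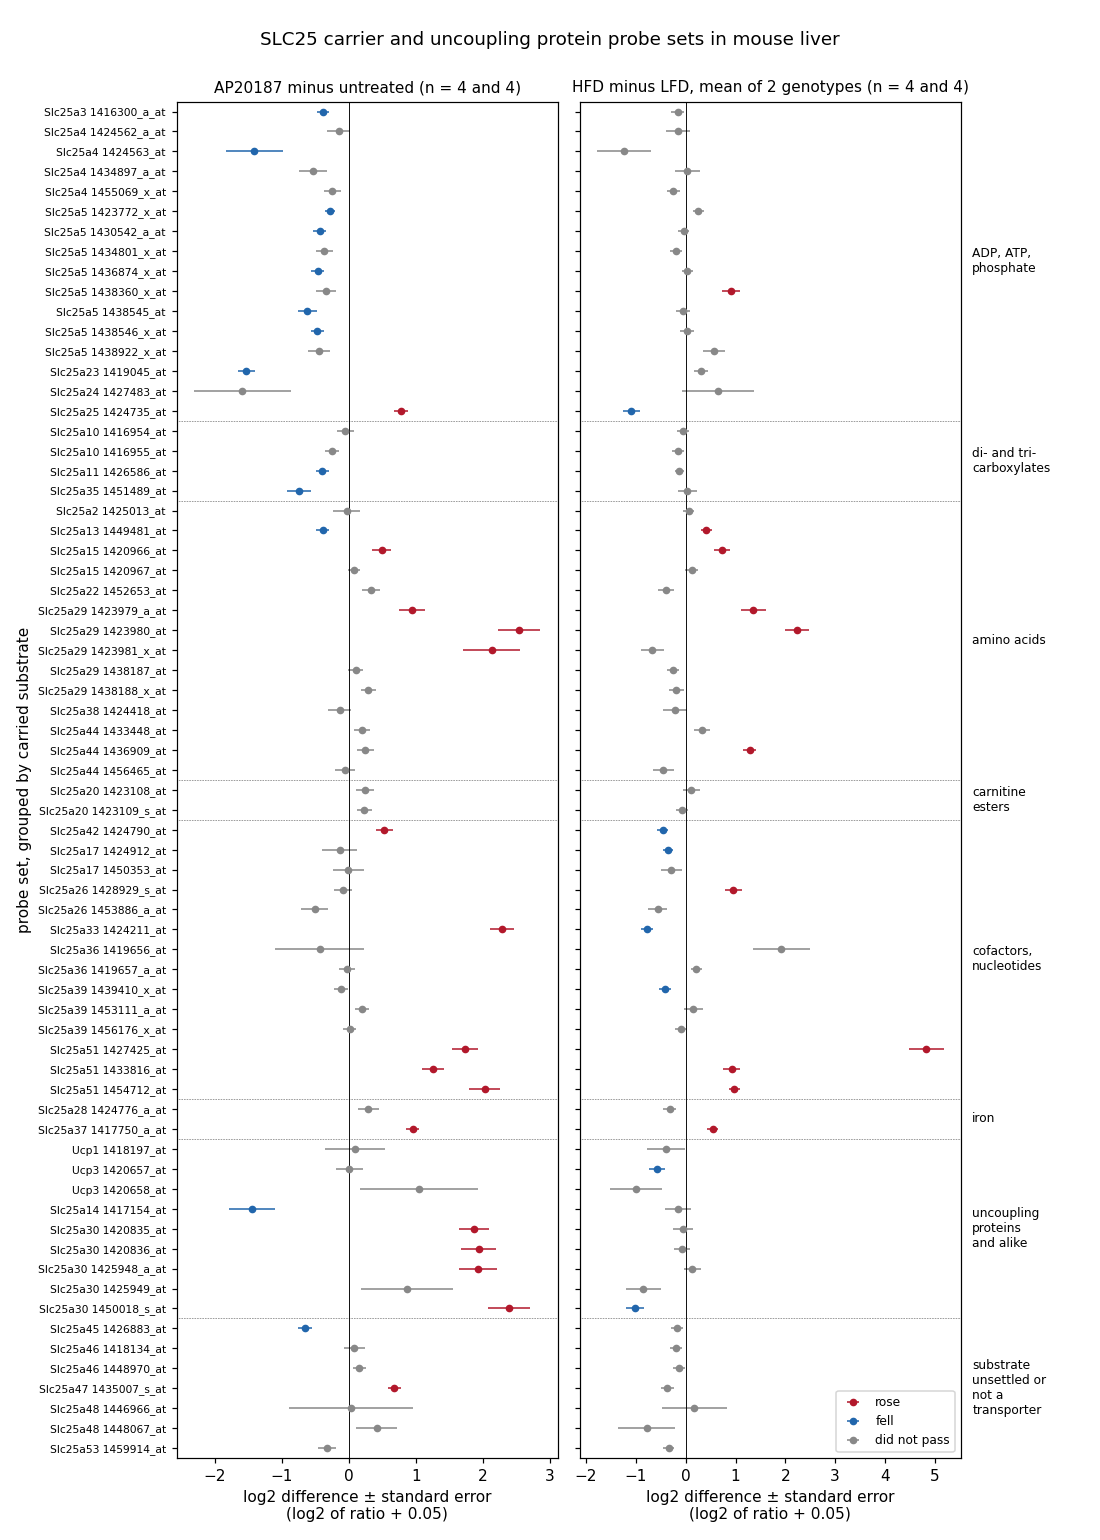
Log2 difference of each of the 68 member probe sets, grouped by carried substrate, for AP20187 against untreated (left, 4 and 4 arrays) and for HFD against LFD averaged over genotypes (right, 4 and 4 arrays). Points are estimates and bars 1 standard error on the log2(ratio + 0.05) scale, and colour marks members that rose, fell or did not pass an adjusted p of 0.05. Slc25a29, Slc25a30, Slc25a33 and Slc25a51 lie farthest right under AP20187, and Slc25a51 1427425_at lies farthest right under HFD.

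Of 16 probe sets for carriers of ADP, ATP and phosphate, 8 fell and 1 rose with AP20187, beside 20.4% and 13.7% of all probe sets. A gene counts as higher or lower here where at least 1 of its probe sets passed, and by that count 4 of the 6 were lower and 1 higher, Slc25a4 through only 1 of its 4 probe sets. Slc25a23 exchanges ATP-magnesium for phosphate under control of calcium. Its ratio was 2.91, 3.07, 2.76 and 3.23 on the untreated arrays and 0.96, 0.86, 1.18 and 1.04 with AP20187. Every treated array was below every untreated array, a log2 difference of -1.53 ± 0.12 (SE), adjusted p = 0.000119. Slc25a25, a carrier of the same ATP-magnesium and phosphate exchange, went the other way. It read 0.99, 1.01, 1.21 and 0.88 without the drug and 1.74, 1.77, 1.68 and 1.94 with it, without overlap, and rose by 0.78 ± 0.11 (adjusted p = 0.000989). The third gene of this type, Slc25a24, had a wide spread, from 0.56 to 1.71 untreated and from 0.09 to 1 treated, and did not pass (-1.59 ± 0.72, adjusted p = 0.133). It passed only without AP20187 replicate 2, with a difference of -2.15 and an adjusted p of 0.0421.

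The ADP/ATP exchangers themselves, which hand matrix ATP to the cytosol, are Slc25a4 and Slc25a5. All 8 Slc25a5 probe sets had a log2 difference below 0, from -0.62 to -0.27, and 5 of them fell. For 1438545_at the ratio was 1.30, 1.49, 1.21 and 1.26 untreated and 0.80, 0.78, 0.71 and 1.10 with AP20187, a fall with no overlap of -0.62 ± 0.14 (adjusted p = 0.0108). That call was lost with the 3' to 5' control difference as a covariate (adjusted p = 0.0804) and after quantile normalization (0.0525). The smallest of the 5 falls, 1423772_x_at, was lost on leaving out untreated replicate 1, 3 or 4 or AP20187 replicate 1, 2 or 4 (adjusted p 0.0504 to 0.0616). Another 2 probe sets passed when 1 array was left out, 1434801_x_at without AP20187 replicate 3 (adjusted p = 0.0094) and 1438922_x_at without AP20187 replicate 4 (0.0204). Of the 8 names, 6 end in _x_at, which marks probes that may also bind other sequences.

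For Slc25a4, the isoform known mainly from heart and muscle, 1 of 4 probe sets fell. That probe set, 1424563_at, read 0.84, 0.70, 0.83 and 0.99 untreated and 0.69, 0.16, 0.17 and 0.31 with AP20187, a difference of -1.41 ± 0.42 (adjusted p = 0.0339). The call was lost on leaving out any 1 of the 4 untreated arrays or AP20187 replicate 2, 3 or 4, with adjusted p values of 0.0585 to 0.0849 and differences of -1.49 to -1.19, and with the control covariate (-0.83, adjusted p = 0.260). The other Slc25a4 probe sets had differences of -0.15 to -0.53 and did not pass. The phosphate carrier Slc25a3, which supplies the phosphate for ATP synthesis, read 1.07 to 1.20 untreated and 0.80 to 0.89 treated, and fell by 0.39 on the log2 scale (SE 0.09, adjusted p = 0.0104).

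Among carriers of di- and tricarboxylates, 2 of 3 genes fell and none rose, on 2 of 4 probe sets, beside 20.4% of all probe sets that fell. Slc25a35, which is related to the oxaloacetate carriers, read 1.33, 2, 1.29 and 1.67 untreated and 0.75, 0.82, 0.96 and 1.16 with AP20187, without overlap (-0.73 ± 0.18, adjusted p = 0.0142). Slc25a11, which exchanges oxoglutarate for malate in the malate-aspartate shuttle, read 1.42, 1.21, 1.28 and 1.52 against 1, 1, 0.99 and 1.09 (-0.39 ± 0.09, adjusted p = 0.0115). The Slc25a11 call was lost after quantile normalization (-0.22, adjusted p = 0.106) and with the control covariate (adjusted p = 0.0569). The dicarboxylate carrier Slc25a10 did not pass in either probe set (-0.05 and -0.25), although 1416955_at passed without untreated replicate 2 (-0.32, adjusted p = 0.0345).

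Amino acid carriers gave 2 genes that rose, 1 that fell and 4 that did not pass, or 4 rises and 1 fall of 14 probe sets, beside 13.7% and 20.4% of all probe sets. Slc25a29 carries basic amino acids across the inner membrane. Its probe set 1423980_at read 0.86, 0.43, 0.31 and 0.27 untreated and 2.52, 2.43, 3.49 and 2.55 with AP20187. The lowest treated value was well above the highest untreated one, and the rise was 2.55 ± 0.32 (adjusted p = 0.000638). A second probe set, 1423981_x_at, read 0.83, 1.31, 0.83 and 0.83 against 2.46, 5.35, 2.64 and 9.36, with a wide range among the treated arrays (2.13 ± 0.43, adjusted p = 0.00605). The third, 1423979_a_at, rose by 0.94 ± 0.19 (adjusted p = 0.00577, but 0.0565 with the control covariate). The remaining 1438187_at and 1438188_x_at had differences of 0.11 and 0.30 and did not pass, so the 5 probe sets did not behave alike. For 1438188_x_at the arrays did not overlap, and it passed once arrays were centred on their medians (adjusted p = 0.0405) or quantile normalized (0.0175).

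Slc25a15, which exchanges ornithine for citrulline in the urea cycle, read 0.94, 0.77, 0.86 and 0.97 untreated and 1.30, 1.34, 0.98 and 1.48 treated in probe set 1420966_at. The rise of 0.49 ± 0.14 (adjusted p = 0.0262) was lost without untreated replicate 2 or 3 or AP20187 replicate 1, 2 or 4 (adjusted p 0.0594 to 0.0750), and the other probe set differed by 0.08. Slc25a13 is the aspartate and glutamate carrier of liver (citrin). It read 1.17, 1.23, 1.20 and 1.33 against 1.01, 0.84, 0.99 and 0.88, and fell by 0.39 on the log2 scale (SE 0.09, adjusted p = 0.0116, but 0.0587 after quantile normalization). Slc25a22 for glutamate (0.33), Slc25a38 for glycine (-0.14), the ornithine carrier Slc25a2 (-0.03) and the 3 probe sets of the branched-chain amino acid carrier Slc25a44 (-0.06 to 0.25) did not pass.

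Slc25a47, a liver-specific carrier whose substrate is not settled, is the protein-coding neighbour of Slc25a29, and both rose with AP20187. It read 0.64, 0.76, 0.77 and 0.78 untreated and 1.25, 1.15, 1.28 and 1.17 with AP20187, without overlap (0.68 ± 0.10, adjusted p = 0.00145). On HFD it did not pass (-0.37 ± 0.13, adjusted p = 0.0770), while Slc25a29 rose in 2 of 5 probe sets. Because both neighbours rose with AP20187, their start regions are shown, from 250 bases before to 50 bases after the RefSeq start in GRCm38.p6. The windows are chr12:108835827-108836126 on the minus strand for Slc25a29 and chr12:108850879-108851178 on the plus strand for Slc25a47. Capitals mark CCAAT, or ATTGG where the CCAAT lies on the other strand.
Slc25a29: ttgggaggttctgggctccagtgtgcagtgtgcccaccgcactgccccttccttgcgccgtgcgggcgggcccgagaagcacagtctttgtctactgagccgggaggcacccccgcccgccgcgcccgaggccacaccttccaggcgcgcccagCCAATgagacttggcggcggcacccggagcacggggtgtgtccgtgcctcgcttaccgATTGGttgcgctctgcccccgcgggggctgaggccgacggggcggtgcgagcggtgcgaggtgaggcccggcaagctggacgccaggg
Slc25a47: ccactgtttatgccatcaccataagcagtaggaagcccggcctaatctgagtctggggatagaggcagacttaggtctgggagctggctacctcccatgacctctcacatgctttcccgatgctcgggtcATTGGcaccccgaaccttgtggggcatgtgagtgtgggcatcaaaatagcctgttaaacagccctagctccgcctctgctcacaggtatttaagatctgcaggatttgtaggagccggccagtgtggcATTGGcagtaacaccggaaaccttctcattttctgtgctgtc
Each window held 2 CCAAT matches and no match to CACGTG or TGATGNAA.

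The cofactor and nucleotide carriers had 3 of 7 genes higher and none lower, on 5 of 14 probe sets, beside 13.7% of all probe sets that rose and 20.4% that fell. Slc25a33 brings pyrimidine nucleotides into mitochondria. Its ratio was 0.27, 0.23, 0.30 and 0.25 untreated and 1.25, 1.58, 1.60 and 1.49 with AP20187, 2 tight groups far apart. The rise of 2.29 ± 0.18 had the smallest adjusted p of any member, 0.000106. Slc25a51 carries NAD+ into the matrix, and all 3 of its probe sets rose. In 1454712_at the values were 0.27, 0.18, 0.33 and 0.28 against 1.33, 1.35, 1.05 and 1.15 (2.03 ± 0.23, adjusted p = 0.000433). In 1427425_at they were 0.33, 0.26, 0.42 and 0.37 against 1.37, 1.31, 1.13 and 1.20 (1.73 ± 0.19). In 1433816_at they were 0.44, 0.38, 0.54 and 0.56 against 1.26, 1.21, 1.11 and 1.25 (1.26 ± 0.16). No treated array overlapped an untreated one in any of the 3.

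Slc25a42, which takes coenzyme A into the matrix, read 0.72, 0.78, 0.95 and 0.80 untreated and 1.30, 1.29, 1.18 and 1.02 treated (0.53 ± 0.12, adjusted p = 0.0106). Slc25a17 of the peroxisome, Slc25a26 for S-adenosylmethionine, the pyrimidine nucleotide carrier Slc25a36 and Slc25a39, which is needed for mitochondrial glutathione, did not pass in any of their 9 probe sets (-0.51 to 0.20). The carnitine and acylcarnitine carrier Slc25a20 differed by 0.25 and 0.24 and did not pass. Its probe set 1423108_at passed without AP20187 replicate 4 (0.36, adjusted p = 0.0423) and 1423109_s_at after quantile normalization (0.35, adjusted p = 0.0444).

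Of the mitochondrial iron importers, Slc25a37 (mitoferrin, the form of erythroid cells) rose and Slc25a28 did not pass. Slc25a37 read 0.86, 0.66, 0.76 and 0.80 untreated and 1.44, 1.66, 1.5 and 1.55 treated, without overlap (0.96 ± 0.10, adjusted p = 0.000293). Beside it, 1 of 4 erythroid markers rose, Slc4a1 of the red cell membrane (1.28 ± 0.36, adjusted p = 0.0275), while Alas2 (0.41), Ermap (0.64) and Hba-a1 (0.06) did not pass. The mean ratio of the 4 markers was 0.775 to 1.06 on untreated and 1.12 to 1.53 on AP20187 arrays, and their part in the Slc25a37 rise was not tested. Slc25a28 differed by 0.30 (adjusted p = 0.173) and passed only without AP20187 replicate 4 (0.41, adjusted p = 0.0470).

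Uncoupling proteins and their closest relatives split, with 4 rises and 1 fall among 9 probe sets, beside 13.7% and 20.4% of all. Slc25a30, an uncoupling-like carrier described mainly in kidney, rose in 4 of 5 probe sets, by 1.87 to 2.39. Probe set 1450018_s_at read 0.42, 0.44, 1.01 and 0.40 untreated and 2.67, 2.96, 4.36 and 2.25 with AP20187 (2.39 ± 0.31, adjusted p = 0.000817). Probe set 1420835_at read 0.60, 0.47, 0.90 and 0.57 against 2.20, 2.71, 3.08 and 1.76 (1.87 ± 0.23). Untreated replicate 3 was the highest untreated array in all 4 that rose. In 1420836_at the range was 0.40 to 0.95 untreated and 1.75 to 2.90 treated (1.94 ± 0.26), and in 1425948_a_at 0.43 to 0.81 and 1.48 to 3.52 (1.93 ± 0.29). The fifth, 1425949_at, overlapped widely (0.14 to 1.86 and 0.83 to 2.44) and did not pass (0.87, adjusted p = 0.384).

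Slc25a14, an uncoupling-like carrier described mainly in brain, read 1.62, 0.83, 1.15 and 1.04 untreated and 0.67, 0.46, 0.31 and 0.22 with AP20187. It fell by 1.44 on the log2 scale (SE 0.34, adjusted p = 0.0133), a call lost with the control covariate (-0.997, adjusted p = 0.118). Ucp1, the uncoupling protein of brown fat, read 0.40, 0.27, 0.22 and 0.30 against 0.36, 0.11, 0.40 and 0.54 and did not pass (0.09 ± 0.45, adjusted p = 0.908). Ucp3, known from skeletal muscle, did not pass in 1420657_at (0.01 ± 0.20) or in 1420658_at (1.05 ± 0.88, adjusted p = 0.412). The latter read 2.45 on untreated replicate 1 and 0.10, 0.14 and 0.17 on the others, against 0.90, 0.87, 0.37 and 0.74 treated. Without untreated replicate 1 its difference was 1.99 with an adjusted p of 0.0112. None of 7 skeletal muscle markers and none of 5 adipocyte markers passed with AP20187.

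The starts of the other strongly raised carriers with a window in the table are shown for comparison with the neighbours on chromosome 12. They are chr14:75786988-75787287, minus strand, for Slc25a30 and chr4:149774218-149774517, minus strand, for Slc25a33. Capitals mark CCAAT and CACGTG, the E-box that many transcription factors bind.
Slc25a30: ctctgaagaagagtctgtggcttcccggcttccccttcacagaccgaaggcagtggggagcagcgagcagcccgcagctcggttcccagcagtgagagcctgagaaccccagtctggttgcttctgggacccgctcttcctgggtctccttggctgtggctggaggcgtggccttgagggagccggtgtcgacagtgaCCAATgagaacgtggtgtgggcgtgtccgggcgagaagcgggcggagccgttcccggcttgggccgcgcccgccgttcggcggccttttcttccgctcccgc
Slc25a33: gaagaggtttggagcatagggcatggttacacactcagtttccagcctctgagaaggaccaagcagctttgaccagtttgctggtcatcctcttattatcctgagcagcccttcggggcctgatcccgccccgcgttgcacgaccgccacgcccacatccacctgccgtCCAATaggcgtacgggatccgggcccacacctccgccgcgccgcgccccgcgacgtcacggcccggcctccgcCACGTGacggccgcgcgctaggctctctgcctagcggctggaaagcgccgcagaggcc
Of the 35 member genes, 28 had a window of this kind, 37 windows in all, and Slc25a2, Slc25a26, Slc25a35, Slc25a37, Slc25a44, Slc25a46 and Slc25a51 had none. On either strand, CCAAT was found in 19 of the 37 windows (51.4%) against 37.4% of all 32851 windows. CACGTG was in 6 windows (16.2%) of Slc25a13, Slc25a14, Slc25a15, Slc25a33 and Slc25a36, against 7.15% of all, and the pair of windows of Slc25a14 overlap. TGATGNAA, the core of an element bound by ATF4 with a C/EBP partner, was in none of the 37 and in 3.97% of all. These are letter matches within 300 bases and show no binding. The members with CACGTG included genes that rose, fell and did not pass.

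**Figure D2:**
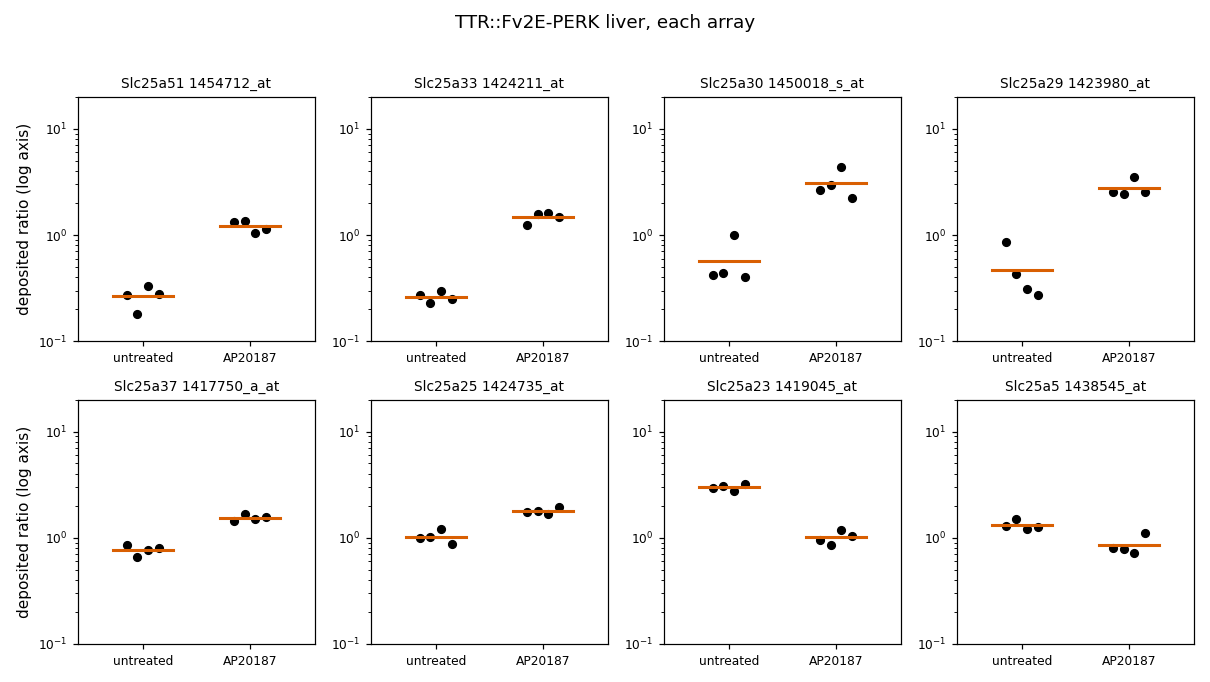
Deposited ratio on each array for 8 member probe sets in TTR::Fv2E-PERK liver, untreated and AP20187-treated (4 arrays each). Points are arrays, the orange line is the group mean and the vertical axis is logarithmic. Treated and untreated arrays are separate in all 8 panels, higher with AP20187 in Slc25a51, Slc25a33, Slc25a30, Slc25a29, Slc25a37 and Slc25a25 and lower in Slc25a23 and Slc25a5.

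The last class holds members with unsettled substrates or other roles. Slc25a45 read 1.35, 1.61, 1.67 and 1.77 untreated and 0.90, 1.04, 1.09 and 0.96 treated, and fell by 0.65 on the log2 scale (SE 0.11, adjusted p = 0.00221). Slc25a46, an outer membrane protein of mitochondrial dynamics, and Slc25a48 did not pass in either of their probe sets, nor did Slc25a53 (-0.33, adjusted p = 0.0961). Slc25a48 was among the noisiest members, with 1446966_at between 0.14 and 3.07 on the untreated arrays alone.

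Genes around the carriers were counted with 1 probe set each, beside 13.3% of 12393 genes that rose and 21.4% that fell. Of 12 genes that import carriers through the TOM and TIM22 complexes, 3 rose and 4 fell, led by the chaperone Timm10 (1.13 ± 0.18) and by Tomm7 (-0.85 ± 0.12) and Timm10b (-0.77 ± 0.13). Mtch1 and Mtch2, SLC25 relatives of the outer membrane, fell by 0.71 and 1.05. Of the malate-aspartate shuttle enzymes, Got1 rose (0.58), Mdh1 (-0.85) and Got2 (-0.58) fell, and the other did not pass. The carnitine shuttle genes Slc22a5 (1.27), Crat (0.88) and Cpt1a (0.86) rose, and the other 2 of the 5 genes fell. Of 16 citric acid cycle genes, 11 fell and none rose, and of 5 genes that use exported citrate, 3 fell, among them Fasn (-2.04) and Acly (-1.42). In the urea cycle, around Slc25a15 and Slc25a13, 2 of 5 genes rose, Asl (0.40) and Nags (0.42), and 2 fell, led by Otc (-1.41). Of the porins and the pyruvate carrier, Vdac1 (-0.47) and Mpc1 (-0.48) fell and 2 of 4 genes did not pass.

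On HFD, averaged over genotypes, 18 of the 68 member probe sets (26.5%) passed, 11 higher and 7 lower, against 27.5% of all probe sets (13.5% higher and 14% lower), so the share called was close to the background. By gene, counted where at least 1 of its probe sets passed, 8 rose, 7 fell and 20 did not pass. Read by the probe set of highest mean alone, 10 of 35 member genes passed, against 28.4% of 12393 genes. The NAD+ carrier Slc25a51 and, in 2 of 5 probe sets, the basic amino acid carrier Slc25a29 rose most. The nucleotide carriers Slc25a25 and Slc25a33 and, in 1 of 5 probe sets, the uncoupling-like Slc25a30 were among those that fell. Arrays did not overlap between diets in 17 members (25%), against 28.8% of all probe sets. With the 3' to 5' control difference as a covariate, 0 of the 68 passed in this comparison or within either genotype. The direction stayed the same in 17 of the 18 called members, whose adjusted p was then 0.377 to 0.942. The difference was -1.54 for Slc25a25, -1.69 for Slc25a30 1450018_s_at, -1.23 for Slc25a33, 1.5 for Slc25a26, 1.37 for Slc25a44 and 0.98 for Slc25a51 1454712_at in that fit. It shrank by over 1.5 times for Slc25a51 1427425_at, Slc25a13 (0.16) and Slc25a17 (-0.10), and turned sign for Slc25a29 1423979_a_at. Of that covariate's variance 85.4% lay between the diets, so diet and the control difference can hardly be told apart here. Leaving out HFD wildtype replicate 1 or 2 or HFD Alb::GC replicate 1 gave 10, 11 and 10 members past the threshold.

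Slc25a51 gave the largest member difference of the series. Probe set 1427425_at read 0.13 and 0.19 on the wildtype LFD arrays, 0.21 and 0.74 on the Alb::GC LFD arrays, 6.16 and 8.11 on wildtype HFD and 10.57 and 10.55 on Alb::GC HFD. Every HFD array was far above every LFD array, a rise of 4.82 ± 0.35 (adjusted p = 0.00143) on average, of 5.1 ± 0.497 for wildtype mice and 4.55 ± 0.497 for Alb::GC mice. The other probe sets of the gene rose much less. On LFD 1454712_at read 0.77, 0.65, 0.75 and 0.84, on HFD 1.16, 1.35, 1.99 and 1.73 (0.98 ± 0.12, adjusted p = 0.00431), with the 2 wildtype arrays first in each set here and in the lists that follow. Values of 1433816_at were 0.84, 0.58, 0.57 and 0.79 against 1.04, 1.13, 1.82 and 1.53 (0.93 ± 0.17, adjusted p = 0.0146, but 0.0552 without HFD Alb::GC replicate 1). In the fit with the control covariate the difference of 1427425_at was 2.13 (adjusted p = 0.377).

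Of 7 amino acid carriers, 4 rose on HFD in at least 1 probe set and none fell, on 5 of 14 probe sets, beside 13.5% of all probe sets that rose and 14% that fell. Slc25a29 1423980_at read 0.67, 0.80, 0.65 and 0.78 on LFD and 4.14, 2.45, 5.21 and 3.13 on HFD, with no overlap (2.24 ± 0.24, adjusted p = 0.00341). Its probe set 1423979_a_at rose by 1.36 ± 0.25 (adjusted p = 0.0142), though the arrays overlapped: 0.78, 1.47, 0.23 and 0.42 against 1.22, 1.42, 1.95 and 1.88. That difference was 2.44 in Alb::GC, where it passed, and 0.28 in wildtype, where it did not, and in the covariate fit it was -0.52 (adjusted p = 0.732). The other 3 Slc25a29 probe sets, including 1423981_x_at, had differences of -0.67 to -0.19 and did not pass.

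Slc25a44, for branched-chain amino acids, read 0.72, 0.92, 0.99 and 0.80 on LFD and 2.50, 2.36, 1.66 and 2.14 on HFD in 1436909_at, without overlap (1.28 ± 0.14, adjusted p = 0.00355). Its other probe sets differed by 0.32 and -0.45 and did not pass. Slc25a15 1420966_at read 0.50, 0.69, 0.87 and 0.71 against 0.89, 1.06, 1.38 and 1.40 (0.73 ± 0.16, adjusted p = 0.0223). The Slc25a15 call was lost without LFD Alb::GC replicate 2 or any single HFD array (adjusted p 0.0527 to 0.0767). Slc25a13 read 0.76, 0.84, 0.84 and 0.89 against 0.94, 1.06, 1.21 and 1.30 (0.41 ± 0.11, adjusted p = 0.0392), and leaving out any 1 of the 8 arrays lost it (0.0535 to 0.128). Around these carriers, 2 of 4 malate-aspartate shuttle enzymes rose, Got1 (1.63) and Mdh2 (1.02), and 1 of 5 urea cycle genes, Otc (0.73). The others of both lists did not pass, beside 13.6% of all genes that rose and 14.8% that fell.

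Of the cofactor and nucleotide carriers, 2 of 7 genes rose and 4 fell on HFD, each on 4 of 14 probe sets, beside 13.5% and 14% of all. Slc25a26, which brings S-adenosylmethionine into mitochondria, read 0.99, 0.58, 0.86 and 0.92 on LFD and 1.59, 1.74, 1.72 and 1.54 on HFD in 1428929_s_at (0.96 ± 0.17, adjusted p = 0.0125). Its second probe set, 1453886_a_at, had a difference of the other sign (-0.56, adjusted p = 0.0672). Slc25a33 read 1.57, 1.40, 1.15 and 1.55 against 0.78, 0.79, 0.80 and 0.85, a drop on every HFD array (-0.77 ± 0.12, adjusted p = 0.00947). Slc25a42 read 1.24, 1.20, 1.09 and 1.26 against 0.77, 0.85, 0.82 and 0.99 (-0.46 ± 0.12, adjusted p = 0.0314). Slc25a39 1439410_x_at read 1.18, 1.04, 0.98 and 1.11 against 0.84, 0.87, 0.73 and 0.75 (-0.41 ± 0.12), and Slc25a17 1424912_at had a difference of -0.36 ± 0.10 with overlapping arrays. For Slc25a42, Slc25a39 and Slc25a17 leaving out any 1 of the 8 arrays lost the call (adjusted p 0.0508 to 0.0906, 0.0624 to 0.123 and 0.0664 to 0.123). Slc25a36 1419656_at had a large difference and a wide spread, 1.91 ± 0.57, and did not pass (adjusted p = 0.0515, and 0.0253 without HFD Alb::GC replicate 2).

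Carriers of ADP, ATP and phosphate gave 1 rise and 1 fall among 6 genes, each on 1 of 16 probe sets. Of all probe sets 13.5% rose and 14% fell. Slc25a25 read 1.30, 1.89, 1.16 and 1.13 on LFD and 0.42, 0.51, 0.70 and 0.87 on HFD, without overlap (-1.09 ± 0.17, adjusted p = 0.00903). In wildtype the difference was -1.66 ± 0.24 and in Alb::GC -0.52 ± 0.24, and the interaction of 1.13 ± 0.34 did not pass (adjusted p = 0.332). Slc25a5 rose in 1 of 8 probe sets, 1438360_x_at, from 1.07, 0.75, 0.65 and 0.87 to 1.97, 1.64, 1.65 and 1.21 (0.92 ± 0.18, adjusted p = 0.0160, but 0.0545 without HFD wildtype replicate 1), and its other 7 probe sets differed by -0.19 to 0.57. Slc25a4 1424563_at passed without LFD wildtype replicate 1 (-1.76, adjusted p = 0.0443), and Slc25a5 1438922_x_at passed without the same array (0.77, adjusted p = 0.0395). Slc25a23, the member that fell most clearly with AP20187, did not pass on HFD (0.31 ± 0.14, adjusted p = 0.141). None of the 3 di- and tricarboxylate carriers, the carnitine carrier Slc25a20 or the 5 members with unsettled substrates or other roles passed. Slc25a48 1448067_at, with a spread of 0.59 to 6.58 on LFD, passed when LFD wildtype replicate 2 was left out (adjusted p = 0.0247).

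Slc25a37 read 1.14, 0.88, 0.96 and 1.04 on LFD and 1.76, 2.02, 1.08 and 1.23 on HFD (0.54 ± 0.12, adjusted p = 0.0227). The wildtype HFD arrays were the high ones, with 0.88 ± 0.17 in wildtype and 0.20 ± 0.17 in Alb::GC (interaction -0.68, adjusted p = 0.388). The averaged call was lost without either LFD Alb::GC array or any single HFD array (adjusted p 0.0505 to 0.0769). The erythroid markers moved apart, with Alas2 (2.17) and Slc4a1 (1.14) higher and Hba-a1 (-1.97) and Ermap (-1.95) lower on HFD. Their mean ratio was 0.995 to 1.22 in LFD wildtype, 2.26 to 2.31 in HFD wildtype, 1.25 to 1.48 in LFD Alb::GC and 1.60 to 1.63 in HFD Alb::GC. Their part in the Slc25a37 values was not tested.

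In the uncoupling class 2 genes fell on HFD and 2 did not pass, on 2 of 9 probe sets, beside 14% of all probe sets that fell. Slc25a30 fell in 1450018_s_at, from 0.91, 1.35, 2.11 and 2.26 to 0.81, 0.87, 0.54 and 0.82 (-1.01 ± 0.18, adjusted p = 0.0124). The other 4 probe sets of the gene differed by -0.85 to 0.14 and did not pass. Ucp3 1420657_at read 1.12, 1.03, 1.04 and 1.18 on LFD and 0.80, 0.62, 0.64 and 0.82 on HFD (-0.58 ± 0.16, adjusted p = 0.0394), and leaving out any 1 of the 8 arrays lost the call (0.0594 to 0.103). Its probe set 1420658_at did not pass (-1.01 ± 0.52) except without LFD Alb::GC replicate 2 (adjusted p = 0.0232). Beside Ucp3, 1 of 7 skeletal muscle markers, Tnnt3, fell on HFD (-1.27). Ucp1 read 0.54, 0.52, 0.37 and 0.39 against 0.39, 0.15, 0.33 and 0.58 and did not pass (-0.39 ± 0.38, adjusted p = 0.470). Of 5 genes listed as adipocyte markers, Cidea (4.2) and Fabp4 (1.19) rose on HFD and the other 3 did not pass. The mean ratio of the 5 was 13.2 to 13.9 in HFD wildtype and 0.912 to 1.93 in HFD Alb::GC. On LFD it was 0.708 to 0.996 in wildtype and 0.798 to 0.864 in Alb::GC. Cidea alone ran from 0.14 to 64.42 over the 16 arrays.

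**Figure D3:**
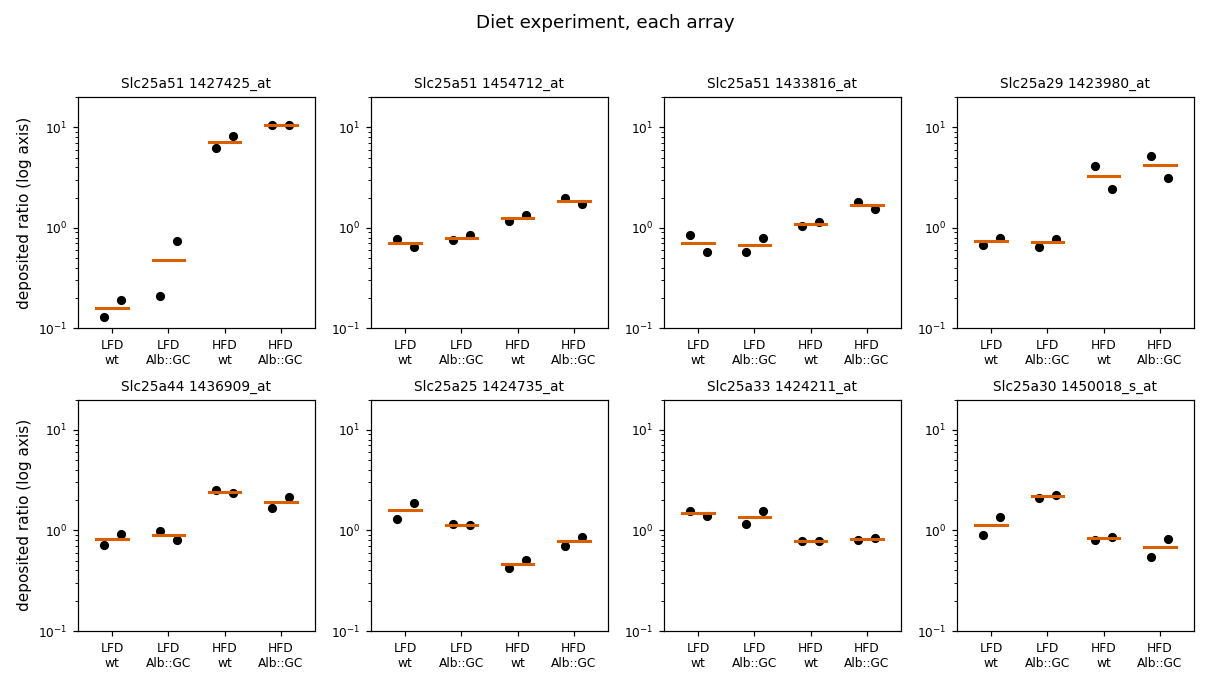
Deposited ratio on each array of the diet experiment for 8 member probe sets, by diet and genotype (2 arrays in each of 4 groups). Points are arrays, the orange line is the group mean and the vertical axis is logarithmic. All HFD arrays of Slc25a51 1427425_at lie above 6, and all LFD arrays below 1.

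Of the genes around the carriers, the import genes of the TOM and TIM22 complexes gave 1 rise and 4 falls of 12 on HFD, led by the chaperone Timm9 (2.38 ± 0.18) with Timm13 (-0.98) and Timm8b (-0.66) lower. Among citric acid cycle genes 5 of 16 rose and none fell, with Ogdh (0.86), Suclg2 (0.73) and Dld (0.80) at the smallest p values. Cpt1a, the entry step of the carnitine shuttle, rose by 2.93 ± 0.47, with the other 4 shuttle genes not passing. Of 4 genes of the porins and the pyruvate carrier, 1 rose, Mpc1 (0.86), and the others did not pass. Over all genes 13.6% rose and 14.8% fell.

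Within wildtype, 9 of 68 members passed on HFD against LFD, 6 higher and 3 lower, where 14.6% of all probe sets passed (7.97% higher and 6.63% lower). Within Alb::GC, 7 passed, 6 higher and 1 lower, where 6.77% of all did (4.64% and 2.13%). Slc25a51 1427425_at, Slc25a51 1454712_at, Slc25a29 1423980_at and Slc25a44 1436909_at rose in both genotypes. In wildtype Slc25a26, Slc25a37, Slc25a25, Slc25a33 and Slc25a17 also passed, and in Alb::GC Slc25a51 1433816_at, Slc25a29 1423979_a_at and Slc25a30 1450018_s_at (-1.64 ± 0.25). Leaving out 1 array here leaves an arm of 1, whose spread is then assumed to be that of the other groups. Leaving out HFD wildtype replicate 1 or 2 left 0 of the 9, leaving out HFD Alb::GC replicate 1 or 2 left 0 of the 7, and for Slc25a51 1427425_at the difference was then 5.29 and 4.9 in wildtype (adjusted p 0.0501 and 0.0504) and 4.55 both times in Alb::GC (0.0594 and 0.0616), close to the values with all arrays. Leaving out LFD wildtype replicate 1 or 2 gave 5 and 3 in wildtype, leaving out LFD Alb::GC replicate 1 or 2 gave 1 and 2 in Alb::GC, and leaving out HFD wildtype replicate 1 or 2 gave 3 in Alb::GC.

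Between genotypes no member passed on LFD, on HFD or in the interaction of diet and genotype, where 0%, 0.133% and 0% of all probe sets passed in limma. At an unadjusted p of 0.05, 10, 12 and 11 of the 68 members were below it (14.7%, 17.6% and 16.2%), against 10.3%, 11.2% and 11.1% of all probe sets. The smallest p values on LFD were those of Slc25a30. Its probe set 1420835_at read 0.61 and 0.98 in wildtype, 2.15 and 2.36 in Alb::GC, and on HFD 1.52 and 1.41 against 0.89 and 1.39. In this probe set the Alb::GC arrays were the higher ones on LFD, by 1.48 ± 0.28 (adjusted p = 0.199). On HFD they were not (interaction -1.86 ± 0.39, adjusted p = 0.206). In 1420836_at the LFD values were 0.74 and 0.96 against 1.69 and 2.13 (1.12 ± 0.22, adjusted p = 0.208), and in 1425948_a_at 0.57 and 0.96 against 1.81 and 1.64 (1.16 ± 0.24, adjusted p = 0.226). All 5 Slc25a30 probe sets had higher Alb::GC values on LFD, by 0.95 to 2.35, without passing. On HFD the probe sets disagreed, and none passed. Alb::GC read above wildtype in 1420836_at (1.14 and 1.58 against 1.11 and 1.04), 1425948_a_at (1.35 and 1.63 against 1.04 and 1.07) and 1425949_at. In 1450018_s_at it did not (0.54 and 0.82 against 0.81 and 0.87).

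On HFD the smallest p values belonged to the dicarboxylate carrier Slc25a10 and again to Slc25a30. Slc25a10 1416954_at read 1.25 and 1.44 on the wildtype arrays, against 0.68 and 0.61 on those of Alb::GC (-1.0 ± 0.17, adjusted p = 0.105). Its second probe set read 1.12 and 1.31 against 0.69 and 0.67, lower in Alb::GC as well (-0.79 ± 0.18, adjusted p = 0.180). Slc25a30 1425949_at read 0.11 and 0.21 against 0.84 and 2.16 (2.78 ± 0.50, adjusted p = 0.109). In the interaction the next smallest p values were those of Slc25a29 1423979_a_at (2.15 ± 0.50, adjusted p = 0.230) and of Slc25a45, which read 1.15 and 1.24 (wildtype) and 0.98 and 0.92 (Alb::GC) on LFD, then 0.69 and 0.85 (wildtype) and 1.20 and 1.09 (Alb::GC) on HFD (0.86 ± 0.23, adjusted p = 0.278). None of these passed after adjustment over all probe sets.

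The PERK and diet experiments share no arrays, and 12 member probe sets passed in both, which is 41.4% of the AP20187 calls and 66.7% of the HFD calls. Over all probe sets the overlap was 32.1% and 39.7%. In 7 of the 12 the direction was the same: the 3 probe sets of Slc25a51, Slc25a29 1423980_at and 1423979_a_at, Slc25a15 1420966_at and Slc25a37 rose in both. In the other 5 it was opposite, 41.7% against 32.9% of all probe sets called in both. Slc25a25, Slc25a30 1450018_s_at, Slc25a33 and Slc25a42 rose with AP20187 and fell on HFD, and Slc25a13 fell with AP20187 and rose on HFD. Another 17 members passed with AP20187 only, 6 on HFD only and 33 in neither. Across the 68 members the log2 differences had a Pearson r of 0.166 and a Spearman rho of -0.07, against 0.133 and 0.121 over all probe sets, as a description of probe sets that share genes and arrays. With the control covariate none of the 12 passed on HFD, and of them Slc25a29 1423979_a_at turned sign.

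**Figure D4:**
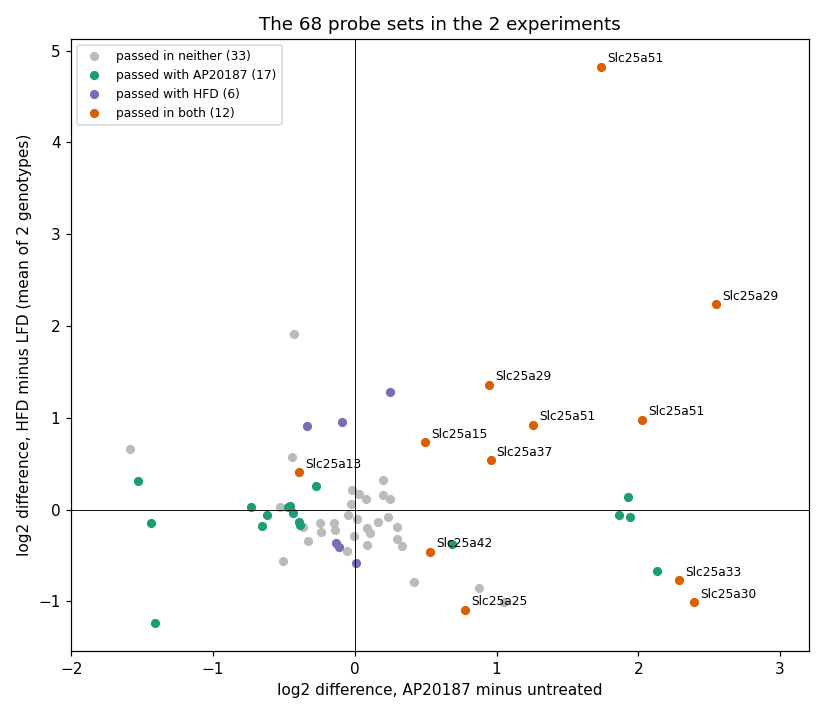
Log2 difference with AP20187 (horizontal) against log2 difference on HFD averaged over genotypes (vertical) for the 68 member probe sets, both on the log2(ratio + 0.05) scale. Colour marks members that passed in both, in 1 or in neither comparison. The 3 Slc25a51 probe sets lie in the upper right and Slc25a33, Slc25a25 and Slc25a30 1450018_s_at in the lower right.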

How the data were processed

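The deposited table holds the authors' linear ratios to 2 decimals, with a smallest value of 0.01. What each ratio is taken against is not given in the sources used here, nor are the array software and its settings. Total RNA was labelled as biotinylated cRNA, per the labels' protocols. The 64 control probe sets were left out. Each ratio was turned into log2(ratio + 0.05), which understates changes of low values, and tested with limma 3.58.1 in R 4.3.3 (lmFit, eBayes with trend), with Benjamini-Hochberg adjustment over all 22626 probe sets and a threshold of 0.05. The PERK and diet experiments were fitted apart, since each has its own scale, with 7 comparisons. Symbols came from the platform annotation: 20380 probe sets had 1 symbol, 691 several and 1555 none. A gene that is no member is read by whichever probe set has the highest mean of log2 values.

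Members and lists were chosen with earlier results of these data known. Values on every array are given, per comparison, for up to 10 rises and 10 falls past the threshold without overlap, and for the 3 smallest p values where fewer than 5 members passed. Ucp1, Ucp2 and Ucp3 are always named. A few other members are given because leaving out an array changed their call. The test was tried on simulated data with known changes. Alternatives were offsets of 0.01 and 0.2, median centring, quantile normalization, a filter on mean ratios under 0.2, eBayes without trend, the 3' to 5' difference of the Gapdh and Actb controls as a covariate, plain probe sets only, 1 probe set per gene, the 4 compared arrays alone and each array left out. For these arrays the number of replicates limits the precision. Promoter windows are RefSeq's, GRCm38.p6.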

Additional observations from a re-analysis of the deposited data

Results flagged for a closer look

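In 17 of the 136 groups of 4 arrays (12.5%), 1 array stood apart from the other 3 by Dixon's test, where chance sets apart about 1 in 20. Of these, 12 were untreated groups, 8 of them with replicate 4 apart, and 5 were AP20187 groups. Over all probe sets untreated replicates 1 to 4 stood apart in 1.4%, 1.61%, 1.01% and 1.99%, and AP20187 replicates 1 to 4 in 1.18%, 0.959%, 2.85% and 1.61%. Among the 68 members the same arrays stood apart in 2, 1, 1 and 8 and in 0, 1, 3 and 1 probe sets.

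Untreated replicate 4 was the highest array for Slc25a3 1416300_a_at (1.20, others 1.07 to 1.09), Slc25a5 1438922_x_at (1.68, others 1.24 to 1.26), Slc25a26 1453886_a_at (1.49, others 0.98 to 1.05), Slc25a39 1439410_x_at (1.13, others 0.99 to 1) and Slc25a39 1456176_x_at (1.09, others 0.90 to 0.93). It was the lowest for Slc25a4 1434897_a_at (1.02, others 1.31 to 1.34), Slc25a29 1438188_x_at (0.80, others 1 to 1.03) and Slc25a26 1428929_s_at (0.98, with the others at 1). Untreated replicate 1 stood apart for Ucp3 1420658_at (2.45, others 0.10 to 0.17) and Slc25a47 1435007_s_at (0.64, others 0.76 to 0.78), replicate 2 for Slc25a29 1423981_x_at (1.31, others 0.83) and replicate 3 for Slc25a30 1450018_s_at (1.01, others 0.40 to 0.44).

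AP20187 replicate 3 was the highest for Slc25a5 1434801_x_at (1.13, others 0.80 to 0.84), Slc25a29 1423980_at (3.49, others 2.43 to 2.55) and Slc25a39 1439410_x_at (1.10, others 0.89 to 0.91). AP20187 replicate 4 was the highest for Slc25a11 1426586_at (1.09, others 0.99 to 1), and replicate 2 the lowest for Slc25a46 1448970_at (0.99, others 1.04).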

How the results depend on the processing

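Over the named values, 815 alternative fits kept the direction and the side of the threshold, 170 lost the threshold, 2 gained it and 10 changed sign. With AP20187 the 29 calls became 18 of 42 plain probe sets, 16 of 35 genes read by their highest-mean probe set and 15 of 35 read by that of smallest spread, 24 with the control covariate, and 26 to 29 with 1 array left out. On HFD averaged over genotypes the 18 calls became 0 with the control covariate, 10 of 35 genes by either choice of probe set and 10 to 15 with 1 array left out. In wildtype the 9 calls became 0 with the covariate, 3 in a fit of the 4 arrays compared and 0 to 9 with 1 array left out. In Alb::GC the 7 became 0 with the covariate, 0 in the fit of 4 arrays, 2 of 35 genes by either choice and 0 to 8 with 1 array left out. Counts by gene or by plain probe sets rest on fewer probe sets. The cause of the other changes was not tested. Values that changed sign were those of Ucp1 with AP20187 (-0.026 with the covariate, and -0.144 to 0.483 with 1 array left out, below 0 without untreated replicate 3 or AP20187 replicate 3 or 4), Ucp3 1420657_at with AP20187 (-0.186 with the covariate, and -0.149 to 0.111 with 1 array left out, below 0 without untreated replicate 1 or 3 or AP20187 replicate 3 or 4) and Ucp3 1420658_at on HFD (2.28 with the covariate), none of which had passed. The covariate also turned Slc25a29 1423979_a_at on HFD to -0.52.

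No paired analysis was possible because the labels carry no replicate numbers, and those used here only name arrays in accession order. With 2 arrays a group in the diet experiment, no genotype difference of a member passed after adjustment over all probe sets. Ratios without a stated reference give no signal over background, so a member such as Ucp1 cannot be called detected or not.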
